A study of Mus musculus with 23 samples.

Results

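The regions described here are stretches of mouse chromatin that are bound by NR5A2 and that lost at least 50% of their accessibility in 8-cell embryos in each of 2 separate Nr5a2 knockouts. The deposited table lists 16958 regions where NR5A2 was bound, according to CUT&RUN of another study, an assay that cuts out DNA under a bound protein. The losing regions were chosen by their ATAC-seq values: a region was kept if it lay on an autosome, had at least 4 RPKM (the authors' unit, reads scaled to library size and length) in heterozygotes and at least 2 RPKM in the untreated pool, and if the knockout value was at most 0.5 of the control in both series. This left 849 regions of the 4754 autosomal regions that passed both control levels, called compared regions below. All 849 were in the authors' class of regions with less accessibility. This class concerns accessibility in the same data that the rule used, so the match is no separate evidence. The share of other regions in this class is not given here.

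ATAC-seq, in which a transposase places sequencing adapters into open DNA, was carried out on 13 mz_NrKO embryos and 8 mz_NrHet embryos of the maternal-zygotic (mz) series, each a library of its own and taken directly at the 8-cell stage. In the inducible series, 1 pool of embryos labelled iNrKO_plus_Tam_NrKO (called the treated pool) received 750 nM 4-hydroxytamoxifen during the initial 24 h of culture, and 1 pool labelled iNrKO_minus_Tam_Nrpp (the untreated pool) received none. Embryos of both pools were collected 30 h after hCG, as early 2-cell embryos, and kept in culture for 45 h. The labels do not name the Cre driver, and tamoxifen and deletion cannot be told apart in the inducible series. The labels of the heterozygous controls do not say whether they kept maternal NR5A2, and no wild-type embryos are among the samples.

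NR5A2, also called LRH-1, belongs to the orphan nuclear receptors and occupies its DNA site as a single molecule. It is known from mouse embryos and embryonic stem cells as a regulator of pluripotency genes, and from liver, pancreas and ovary as a regulator of bile acid, sterol and steroid genes. A transcription factor of this kind can hold its sites open, and the comparison in the 2 series addresses which bound sites lose accessibility when the factor is missing.

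The table gives 1 merged RPKM value per group and region, so no value can be set against the spread between embryos. The values are whole multiples of 1 step per column, and whole reads were recovered by division. A read was worth 0.359 RPKM in mz_NrKO and 0.587 RPKM in mz_NrHet, and 0.170 RPKM in the treated and 0.163 RPKM in the untreated pool. The median losing region held 5 reads in mz_NrKO and 10 reads in mz_NrHet, and 8 reads in the treated and 25 reads in the untreated pool. Intervals below are exact 95% intervals. Those of ratios cover counting error of reads only. Those of shares treat regions as independent, although regions are not replicates, and are a description with no test. The level of accessibility chose these regions, so their ratios are a description and carry no test.

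The sequence of the NR5A2 site could be read where a region reached a RefSeq promoter window (250 bases before to 50 bases after a gene start, GRCm38.p6, the assembly of mm10). The authors had moved the CUT&RUN summit of many regions onto an Nr5a2 motif. In 115 regions with a moved summit inside such a window, a 9-base stretch at a fixed place beside the new summit matched the motif TCAAGGNCA, on either strand, in at least 7 of its 8 specified bases in each region, and in all 8 in 31. In 114 regions whose summit was not moved, 2 stretches matched in at least 7 bases. The fixed place was found on these same windows. At these promoters a moved summit marked a match to the motif. Among losing regions, 1 site of this kind could be read with its flanking bases inside a window. It lay upstream of a RefSeq start of Khdc3, in a region inside the gene span. Khdc3 is a maternal-effect gene of the oocyte and early embryo. The Khdc3 site is shown with the 5 other compared regions at named genes that matched in all 8 bases and had the highest control accessibility, to show that the same site letters occur in both. Each line gives the strand that reads TCAAGG, with the 9 bases of the site in capitals.
Khdc3, losing in both (chr9:73102179-73102209, minus strand): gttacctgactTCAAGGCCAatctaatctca
Mtrf1l, past neither limit (chr10:5824132-5824162, minus strand): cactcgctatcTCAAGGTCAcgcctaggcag
Plcd1, past neither limit (chr9:119088448-119088478, minus strand): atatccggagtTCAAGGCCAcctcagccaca
Psap, past the mz limit only (chr10:60277468-60277498, minus strand): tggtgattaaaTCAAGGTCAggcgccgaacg
Castor1, past neither limit (chr11:4218048-4218078, minus strand): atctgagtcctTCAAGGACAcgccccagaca
Nfe2l1, past neither limit (chr11:96829490-96829520, minus strand): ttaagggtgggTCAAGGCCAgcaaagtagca

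The Khdc3 region held 4.66 RPKM in mz_NrKO and 16.4 RPKM in mz_NrHet, a ratio of 0.283, and 2.72 RPKM in the treated and 5.88 RPKM in the untreated pool, a ratio of 0.463. The region at Plcd1, a phospholipase gene, has the same 9 letters and held 12.2 RPKM in mz_NrKO and 18.2 RPKM in mz_NrHet, and 6.13 RPKM in the treated and 10.9 RPKM in the untreated pool. At Castor1, which encodes an arginine sensor of the mTORC1 pathway, the values were 17.2 and 16.4 RPKM in the mz series, knockout first, and 8.17 and 7.83 RPKM in the inducible series. The same 9 letters stood in a region inside and in regions outside the losing set. The whole Khdc3 promoter window is printed because it is the one in which the site at a losing region's moved summit could be read with its flanking bases. Capitals mark the motif match, which lies on the minus strand and starts at position -208 from the RefSeq start of this window.
Khdc3 promoter (chr9:73102148-73102447, plus strand): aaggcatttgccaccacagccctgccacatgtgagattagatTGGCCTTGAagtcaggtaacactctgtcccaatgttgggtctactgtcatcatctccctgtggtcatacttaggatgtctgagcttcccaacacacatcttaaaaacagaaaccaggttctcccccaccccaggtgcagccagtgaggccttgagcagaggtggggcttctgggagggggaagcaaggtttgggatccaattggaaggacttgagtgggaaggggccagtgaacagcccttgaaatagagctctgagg

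Losing regions seldom reached a promoter window. Of the 818 losing regions on chromosomes for which windows were at hand, 14 (1.71%, interval 0.939 to 2.86) overlapped one, against 342 of 3783 other compared regions (9.04%, 8.15 to 10.00). Named genes among the 14 were Khdc3, Stard10, which encodes a lipid transfer protein, Aldh1l1, a folate enzyme gene, Zfp655, Pttg1ip, and Noto, a homeobox gene known for the notochord. The Stard10 region had 6.81 RPKM in mz_NrKO and 14.1 RPKM in mz_NrHet, and 3.06 RPKM in the treated and 6.53 RPKM in the untreated pool. The Pttg1ip region had 3.59 RPKM in mz_NrKO and 8.22 RPKM in mz_NrHet, and 2.21 RPKM in the treated and 4.57 RPKM in the untreated pool. TCAAGGNCA, searched on both strands, was present in 2 of the 14 windows that losing regions overlap, in 26 of 435 windows that other compared regions overlap (5.98%) and in 532 of all 32851 windows of the table (1.62%). The 2 promoters below are printed to show a window at a losing region without a match in all 8 specified bases. Bases of these regions outside the windows could not be read, so whether they hold a match is not known. The Pttg1ip summit had been moved by 37 bp onto a motif. The capitals of Stard10 do hold TCAAGGCCC, which matches in 7 of the 8. Capitals mark the bases that the listed region covers.
Stard10 promoter (chr7:101316836-101317135, plus strand): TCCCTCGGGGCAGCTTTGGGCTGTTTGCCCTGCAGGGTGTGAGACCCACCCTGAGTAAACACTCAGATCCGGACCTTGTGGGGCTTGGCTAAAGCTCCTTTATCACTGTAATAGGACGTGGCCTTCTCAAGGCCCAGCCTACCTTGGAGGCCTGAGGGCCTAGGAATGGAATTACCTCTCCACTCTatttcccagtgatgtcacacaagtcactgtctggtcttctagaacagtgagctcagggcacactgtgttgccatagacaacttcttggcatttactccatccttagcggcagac
Pttg1ip promoter (chr10:77581405-77581704, plus strand): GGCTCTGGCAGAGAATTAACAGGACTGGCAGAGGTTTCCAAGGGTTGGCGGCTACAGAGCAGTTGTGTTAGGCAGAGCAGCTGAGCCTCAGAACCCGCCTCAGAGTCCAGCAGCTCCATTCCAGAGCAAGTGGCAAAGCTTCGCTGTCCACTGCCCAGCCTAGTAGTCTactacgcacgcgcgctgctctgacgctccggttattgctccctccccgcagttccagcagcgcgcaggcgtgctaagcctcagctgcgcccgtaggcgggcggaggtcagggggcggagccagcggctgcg

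Across the whole set the losses were deep. The losing regions averaged 2.11 RPKM in mz_NrKO and 7.17 RPKM in mz_NrHet, a ratio of summed RPKM of 0.294 (0.284 to 0.304). In the inducible series they averaged 1.49 RPKM in the treated and 4.40 RPKM in the untreated pool, a ratio of 0.340 (0.331 to 0.349). The other compared regions had ratios of 0.648 (0.640 to 0.656) and 0.773 (0.767 to 0.780). The rule fixed the direction of these gaps. Of the 849 regions, 93 had a ratio of at most 0.25 in both series, 236 in the mz series alone, 96 in the inducible series alone and 424 in neither. In mz_NrKO 14 losing regions had no read, and in the treated pool 3 had none, where 0 reads allow up to 1.08 RPKM and 0.510 RPKM.

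**Figure D1:**
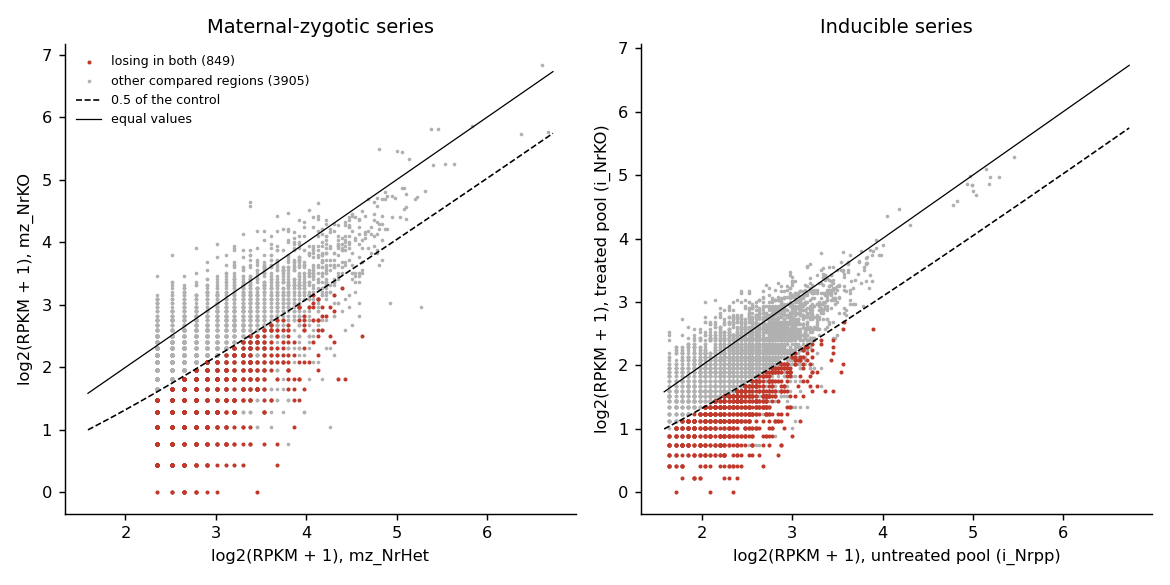
Accessibility of the 4754 compared regions, with the control on the horizontal and the knockout on the vertical axis as log2(RPKM + 1), for the mz series (left) and the inducible series (right). The 849 losing regions (red) lie on or under the dashed line of 0.5 of the control in both panels by choice, and grey points under the line passed the limit in 1 series only.

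The limit was passed by 2108 compared regions (44.3%) in the mz series and by 1267 (26.7%) in the inducible series, and by 849 (17.9%) in both. The losing set made up 40.3% of the regions past the mz limit and 67.0% of those past the inducible limit. Of regions not past the mz limit, 15.8% were past the inducible one. No compared region past the limit in one series was at least 2-fold higher in the other. A mirror rule, with knockout and control exchanged and the same levels and limit, was met by 5 of 2253 autosomal regions (0.222%). The compared regions as a whole were lower in the knockouts, with a median ratio of 0.543 in the mz series and of 0.680 in the inducible one. With each series scaled to a median ratio of 1, 206 regions passed both limits.

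Reads of single regions were few. The upper end of the counting interval of the ratio lay under 1 in both series for 486 of the 849 regions (57.2%), and under 0.5 in both for 25. An exact binomial test of reads, adjusted over all 16958 regions by Benjamini-Hochberg, called 125 losing regions lower between the mz libraries, where 1.73% of all regions were called lower and 0.0236% higher. In the inducible libraries it called 360 losing regions lower, where 6.37% of all regions were called lower and 0.0767% higher. Of the 4754 compared regions, 5.51% were called lower in the mz libraries and 11.1% in the inducible ones. Called lower in both were 67 (1.41% of the compared regions), all of them in the losing set. The rule used these contrasts, so nothing is read from the members' counts. The calls over all regions depend on the scaling: with each series scaled to the median of its regions, those called lower numbered 52 in the mz series, against 293 unscaled, and 199 in the inducible one, against 1081. At the limit, the highest of the 2 ratios was 0.4996 for a region near Tns3 and 0.4995 for 13 regions with the same 9 reads in mz_NrKO and 11 in mz_NrHet, Ppp1r9a and Glipr2 among them. Just outside it was 0.5004 for 7 regions, among them those near Msantd2, Cnot8 and Rai1. With 1 read more in 1 knockout column 212 of the 849 regions would leave the set, and with 1 read fewer 207 other compared regions would enter it.

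The 10 losing regions with the highest control accessibility were read at 25 to 40 reads in mz_NrHet and at 24 to 85 reads in the untreated pool. The region inside Hs6st1, which encodes a heparan sulfate 6-O-sulfotransferase (chr1:36077189-36077563), had 2.51 RPKM in mz_NrKO and 20.6 RPKM in mz_NrHet, a ratio of 0.122 (0.0458 to 0.279). In the inducible series it had 4.94 RPKM in the treated and 13.9 RPKM in the untreated pool, a ratio of 0.356 (0.225 to 0.548). The region near Ptma, the prothymosin alpha gene (chr1:86492129-86492419, 34.1 kb away), had a ratio of 0.256 in either series, with 4.66 RPKM in mz_NrKO and 18.2 RPKM in mz_NrHet, and 2.21 RPKM in the treated and 8.65 RPKM in the untreated pool. In both regions the counting intervals of both ratios ended under 1.

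The region inside Wnt3a, the gene of a Wnt ligand (chr11:59260882-59261258), had 8.61 RPKM in mz_NrKO and 20.0 RPKM in mz_NrHet, and 3.23 RPKM in the treated and 8.00 RPKM in the untreated pool. Near Hes1, a Notch-responsive repressor gene, the values were 2.51 RPKM in mz_NrKO and 19.4 RPKM in mz_NrHet, and 3.40 RPKM in the treated and 7.51 RPKM in the untreated pool. The Hes1 ratio was 0.130 (0.0483 to 0.298) in the mz series, and the inducible one was 0.453 (0.254 to 0.782), with overlapping intervals. The region near Eif5, a translation initiation factor gene (chr12:111512597-111513225), had equal ratios of 0.458 in both series. Inside C1qbp, the gene of a mitochondrial matrix protein, accessibility was 4.30 RPKM in mz_NrKO and 18.8 RPKM in mz_NrHet, and 3.74 RPKM in the treated and 7.67 RPKM in the untreated pool. Regions near Grk6, Proser2 and Olfr836 had ratios between 0.284 and 0.427. The region inside Tbc1d24 had the lowest control value of the 10 in the inducible series, 3.92 RPKM against 1.87 RPKM in the treated pool, and its interval there reached 1.01.

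**Figure D2:**
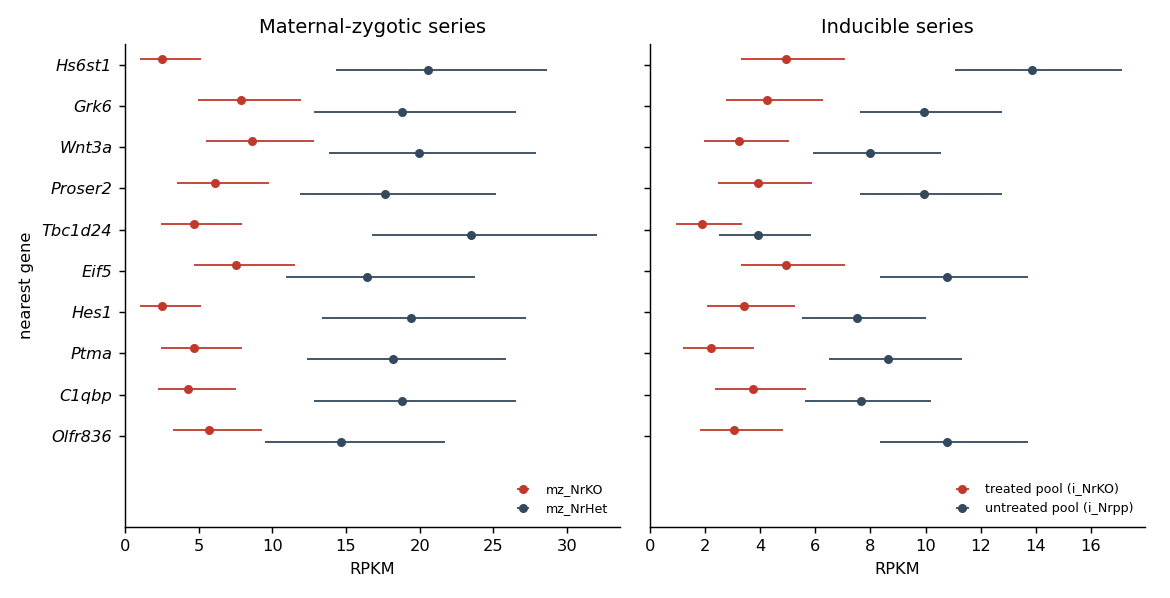
RPKM of the 10 losing regions with the highest sum of control values, named by the nearest gene, with knockout (red) above control (dark) in each row. Points are single merged values and bars are exact 95% Poisson intervals of their reads. In the mz panel Hs6st1 and Hes1 have the lowest knockout values, 2.51 RPKM each, and in the inducible panel the bars of treated and untreated pool overlap at Tbc1d24 and C1qbp, as do the mz bars at Eif5.

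The deepest losses by the upper ends of both intervals were at regions of moderate control accessibility. A region inside AI987944 (chr7:41390613-41390881) had 0 reads in mz_NrKO and 9 in mz_NrHet, and 0 reads in the treated and 25 in the untreated pool. Inside Ube2u, which encodes a ubiquitin-conjugating enzyme, the ratio was 0.0407 (0.000967 to 0.265) in the mz series, from 1 read in mz_NrKO and 15 in mz_NrHet, and 0.0834 (0.00958 to 0.335) in the inducible series. A region inside Optn, the gene of the autophagy receptor optineurin (chr2:5032012-5032422), had 0.717 RPKM in mz_NrKO and 11.8 RPKM in mz_NrHet, and 0.851 RPKM in the treated and 5.71 RPKM in the untreated pool. Inside Stk24, a sterile-20 type kinase gene, the values were 2.15 RPKM in mz_NrKO and 13.5 RPKM in mz_NrHet, and 0.510 RPKM in the treated and 6.20 RPKM in the untreated pool. The other 4 of these 8 regions lay inside Spag17, a sperm flagellum gene, and Lemd1, 44.2 kb from Tmem131 and 1106 kb from Rapgef2. In the 8 regions the mz interval ended at 0.402 or lower and the inducible interval at 0.473 or lower, and the summit had not been moved in Spag17, Lemd1 and near Tmem131.

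NR5A2 binding was close to that of the other compared regions. The median CUT&RUN signal was 5.66 RPKM over losing regions and 5.45 RPKM over the other compared regions. Of the 951 compared regions with the strongest CUT&RUN signal 20.2% were losing (17.7 to 22.9), and of the 951 with the weakest 16.5% (14.2 to 19.0). The width had medians of 326 bp and 318 bp. The losing regions with the strongest signal lay near Cnnm4, a magnesium transporter gene (30.3 RPKM CUT&RUN), near 1700001O22Rik (26.9 RPKM), near Mapk4 (25.7 RPKM) and near Tomm5, which encodes a subunit of the mitochondrial import pore (23.5 RPKM). The Cnnm4 region had 2.51 RPKM accessibility in mz_NrKO and 7.05 RPKM in mz_NrHet, and 2.72 RPKM in the treated and 10.6 RPKM in the untreated pool. Next came regions near Eif5, Rnf126, Igf2r, Epn2 and Ripor3 and inside Kdm8, at 20.4 to 22.1 RPKM CUT&RUN. The region 6.80 kb from Igf2r, which encodes a receptor that clears IGF2, had 3.23 RPKM accessibility in mz_NrKO and 11.2 RPKM in mz_NrHet, and 2.21 RPKM in the treated and 7.35 RPKM in the untreated pool.

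**Figure D3:**
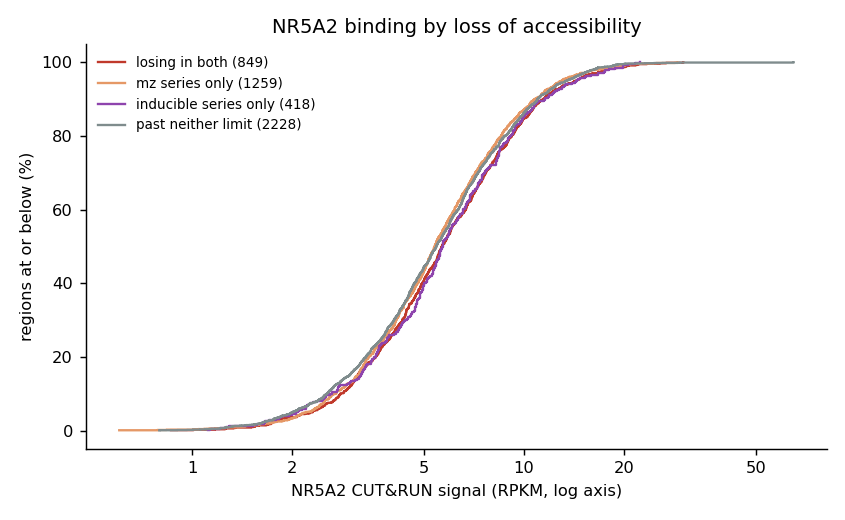
Cumulative share of compared regions by NR5A2 CUT&RUN signal (RPKM, log axis) for regions losing in both series, in the mz series only, in the inducible series only, and past neither limit. The 4 curves run close together, with medians of 5.66, 5.39, 5.69 and 5.44 RPKM.

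The summit had been moved onto a motif in 769 of the 849 losing regions (90.6%, 88.4 to 92.5), against 3226 of 3905 other compared regions (82.6%, 81.4 to 83.8) and 1746 of the 2228 regions past neither limit (78.4%). Regions past 1 limit only lay between, at 87.8% for the mz and 89.7% for the inducible series. The share of compared regions that were losing was lowest where the summit was unmoved or moved far. It was 21.9% (19.7 to 24.3) for moves of up to 25 bp, 20.2% up to 50 bp, 19.4% up to 100 bp and 13.8% (11.5 to 16.4) beyond that, and 10.5% (8.45 to 12.9) where the summit was not moved. Losing regions with an unmoved summit had a median CUT&RUN signal of 4.26 RPKM, against 5.86 RPKM for those with a moved one. Of the 93 regions at or under 0.25 in both series 82.8% had a moved summit, against 90.6% of the 424 above 0.25 in both. Of regions with 4 to 8 RPKM in mz_NrHet alone, the gap in moved summits to other regions was 3.35 percentage points, against 7.97 percentage points over all levels.

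Few losing regions lay near gene ends. Within 1 kb of either end of a protein-coding gene span there were 52 of 849 (6.13%, 4.61 to 7.96), against 606 of 3905 other compared regions (15.5%, 14.4 to 16.7) and 447 of 2228 past neither limit (20.1%). Of regions with 4 to 8 RPKM in mz_NrHet alone, the gap was -4.95 percentage points, against -9.39 over all levels. The losing share was 7.90% within 1 kb, 16.7% up to 10 kb, 22.4% up to 50 kb and 20.0% farther out. By the starts of genes in the RefSeq promoter table, 37 of 818 losing regions (4.52%) lay within 1 kb, against 500 of 3783 others (13.2%). Inside gene spans lay 432 losing regions (50.9%) and 48.0% of the others, and more than 50 kb from any span 55 (6.48%) and 6.27%. Both features also combined: 3 of 224 unmoved regions within 1 kb of a gene end were losing (1.34%), 77 of 535 unmoved regions farther out (14.4%), 49 of 434 moved regions near an end (11.3%) and 720 of 3561 moved regions farther out (20.2%).

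**Figure D4:**
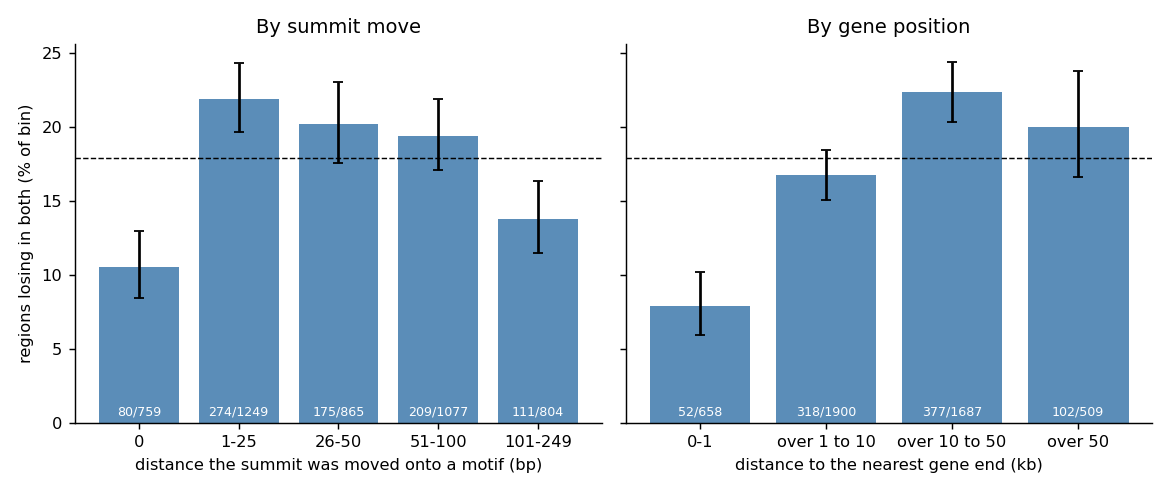
Percentage of compared regions that lost accessibility in both knockouts, by how far the authors moved the summit onto a motif (left) and by distance to the nearest gene end (right). Bars carry exact 95% binomial intervals and the counts behind them, and the dashed line is the share over all compared regions, 17.9%. Unmoved summits (10.5%) and regions within 1 kb of a gene end (7.90%) lie lowest.

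Of the losing regions, 126 were in the authors' class of bound but not accessible regions, 14.8% against 9.65% of the other compared regions. They had lower levels, with medians of 1.43 RPKM in mz_NrKO and 4.70 RPKM in mz_NrHet, and 1.02 RPKM in the treated and 3.10 RPKM in the untreated pool. A moved summit was present in 92.1% of them and in 90.3% of the accessible class. Among regions named in this report, the class of bound but not accessible regions included those near Tomm5, Klf4, Acaca, Llgl1 and Snrpd3. It also included the one inside Cdh1 and one inside Nol4l (chr2:153500637-153500886). The losing share by chromosome ran from 10.7% (6.44 to 16.3) on chromosome 19 to 22.4% (17.4 to 28.1) on chromosome 10. These were the extremes picked from 19 autosomes and were not tested.

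Losing regions often had a losing neighbour. Of 432 losing regions with another compared region within 50 kb, 156 (36.1%, 31.6 to 40.8) had a losing one among them, against 508 of 2170 other compared regions (23.4%, 21.6 to 25.3). Within 10 kb the shares were 35.3% and 15.2%. With neighbours closer than 2 kb left out, since these may share reads, the shares were 33.3% and 23.0%. Losing regions had 771 nearest genes, of which 703 had 1 losing region, 64 had 2 and 4 had at least 3.

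Nudt4, which encodes a diphosphoinositol polyphosphate phosphohydrolase, was nearest to 6 losing regions of 8 compared ones, all outside the gene at up to 155 kb. Their summed RPKM was 18.7 in mz_NrKO and 48.2 in mz_NrHet, and 10.9 in the treated and 27.3 in the untreated pool. Nol4l, a nucleolar protein-like gene, had 5 of 8, of which 3 lay inside the gene. One of these (chr2:153500637-153500886) had 0 reads in mz_NrKO and 11 in mz_NrHet, and 2 reads in the treated and 18 in the untreated pool. This region was in the authors' class of bound but not accessible regions. The 2 Nol4l regions outside the gene lie 0.419 kb apart by their centres and may share reads. Pcmtd1, a protein methyltransferase family gene, had 4 of 5, of which 2 lay inside the gene and the farthest lay 465 kb away. The closest 2 Pcmtd1 regions lie 1.15 kb apart by their centres and the closest 2 Nudt4 regions 1.70 kb, so these may share reads too. Hs6st1 had 3 of 4, with summed ratios of 0.200 in the mz series and 0.376 in the inducible one.

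Genes that mark early lineages and cell functions were looked up within 50 kb of the compared regions in 10 lists, and 39 losing regions were near them. A region was counted for a listed gene even where another gene was nearer or held the region. Regions near inner cell mass and pluripotency genes were losing in 6 of 40 (15.0%, 5.71 to 29.8). These lay near Klf4 with 2 regions and near Klf5, Prdm14, Tfcp2l1 and Tdgf1 with 1 each. The Prdm14 region lay inside Ncoa2, 19.3 kb from Prdm14, and the Tdgf1 region 20.3 kb from Tdgf1, with Fam240a nearer. Klf4, Klf5, Prdm14 and Tfcp2l1 encode pluripotency transcription factors and Tdgf1 the Nodal co-receptor Cripto. The region 1.18 kb from Klf4 (chr4:55525696-55525959) had 0.359 RPKM in mz_NrKO and 5.29 RPKM in mz_NrHet, from 1 and 9 reads, and 0.510 RPKM in the treated and 3.75 RPKM in the untreated pool, from 3 and 23 reads. Its ratios were 0.0678 (0.00155 to 0.490) and 0.136 (0.0261 to 0.450), and its summit had been moved by 1 bp onto a motif. Both Klf4 regions were in the authors' class of bound but not accessible regions. The region near Tfcp2l1 had 1.08 RPKM in mz_NrKO and 4.70 RPKM in mz_NrHet, and 1.19 RPKM in the treated and 3.59 RPKM in the untreated pool. The region 42.2 kb from Klf5 had 2.51 RPKM in mz_NrKO and 8.81 RPKM in mz_NrHet, and 2.04 RPKM in the treated and 4.57 RPKM in the untreated pool.

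Regions of the polarity and Hippo list, whose genes set up the outer and inner cells of the morula, were losing in 9 of 33 (27.3%, 13.3 to 45.5), near 6 genes. These were Pard6b, Pard3 and Tead1 with 2 regions each, and Prkcz, Rock2 and Llgl1. The Llgl1 region lay inside Top3a, 30.5 kb from Llgl1, and the Rock2 region 32.9 kb from Rock2, with another gene nearer. The Prkcz region and the farther Pard6b region also had another gene nearer. Tead1 encodes a DNA-binding partner of YAP, and a region inside it (chr7:112691143-112691731) had 2.15 RPKM in mz_NrKO and 8.22 RPKM in mz_NrHet, and 0.681 RPKM in the treated and 2.94 RPKM in the untreated pool. Pard6b encodes a subunit of the apical PAR complex, and the region 0.709 kb from it had 1.79 RPKM in mz_NrKO and 5.29 RPKM in mz_NrHet, and 1.53 RPKM in the treated and 5.06 RPKM in the untreated pool. The Tead1 intervals ended at 0.725 and 0.703, while the mz interval of this Pard6b region reached 1.13.

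Junction and compaction genes had 4 losing regions of 18 (22.2%, 6.41 to 47.6), near Cdh1, Epcam, Afdn and Myl12b. The Afdn region lay inside Tcte2, 4.21 kb from Afdn. Cdh1 encodes E-cadherin, the adhesion protein of compaction, and the region inside it (chr8:106609250-106609714) had 1.43 RPKM in mz_NrKO and 7.05 RPKM in mz_NrHet, and 0.510 RPKM in the treated and 3.75 RPKM in the untreated pool. Inside Myl12b, a myosin regulatory light chain gene, the values were 2.87 RPKM in mz_NrKO and 12.9 RPKM in mz_NrHet, and 0.851 RPKM in the treated and 3.10 RPKM in the untreated pool. The Cdh1 ratios were 0.203 (0.0478 to 0.671) and 0.136 (0.0261 to 0.450), and this region was in the class of bound but not accessible regions. The 18 regions had a median inducible ratio of 0.823, against 0.680 over all compared regions.

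Mitosis and genome maintenance genes had 6 losing regions of 35 (17.1%), near Cdc6, Aurka, Cenpa, Ndc80 and, with 2 regions, Kif20a. The Cenpa region lay inside Slc35f6, 15.7 kb from Cenpa, and the Kif20a regions inside Cdc23 and Brd8. The region 1.81 kb from Cdc6, a replication licensing gene, had 1.79 RPKM in mz_NrKO and 13.5 RPKM in mz_NrHet, and 1.53 RPKM in the treated and 5.39 RPKM in the untreated pool. Wipf2 was nearer to this region, at 0.1 kb. The region inside Aurka, a mitotic kinase gene, had 2.51 RPKM in mz_NrKO and 5.29 RPKM in mz_NrHet, and 1.36 RPKM in the treated and 4.73 RPKM in the untreated pool. The list's share was near the 17.9% of all compared regions at this distance, but within 10 kb it was 5 of 15 regions (33.3%).

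Genes of lipid, sterol and bile acid metabolism had 5 losing regions of 18 (27.8%, 9.70 to 53.5), among them regions near Fdx1, Star and Acaca. The Star region lay inside Ash2l, 18.1 kb from Star, and the Acaca region inside Tada2a. The region 6.55 kb from Fdx1, which encodes the ferredoxin that passes electrons to mitochondrial steroidogenic enzymes, had 1.08 RPKM in mz_NrKO and 5.29 RPKM in mz_NrHet, and 1.70 RPKM in the treated and 4.41 RPKM in the untreated pool. The region 30.5 kb from Acaca, a fatty acid synthesis gene, had 1 read in mz_NrKO and 7 in mz_NrHet, and 1 in the treated and 17 in the untreated pool. This Acaca region was in the class of bound but not accessible regions. Oocyte and maternal-effect genes had 3 of 23, inside Khdc3, 20.5 kb from Figla and 47.85 kb from Dppa3, the last of these inside Apobec1. Near Figla, an oocyte transcription factor gene, accessibility was 1.79 RPKM in mz_NrKO and 11.2 RPKM in mz_NrHet, and 2.21 RPKM in the treated and 4.73 RPKM in the untreated pool.

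The trophectoderm list had 3 of 26 (11.5%), with 2 near Dppa1 and 1 inside Ptges, a prostaglandin E synthase gene. The Dppa1 regions lay 24.7 kb and 41.9 kb from Dppa1, with other genes nearer. That Ptges region had 3.23 RPKM in mz_NrKO and 7.64 RPKM in mz_NrHet, and 1.70 RPKM in the treated and 4.41 RPKM in the untreated pool. The primitive endoderm list had 1 of 10, near the collagen gene Col4a2, and the list of 2-cell genes 1 of 12, near the homeobox gene Obox6. The Col4a2 region lay inside Rab20, 7.05 kb from Col4a2. Housekeeping genes had 1 of 37 (2.70%, 0.0684 to 14.2), near Snrpd3, a spliceosome subunit gene. That region lay inside Gucd1, 4.15 kb from Snrpd3. The interval of this list ended under the share over all compared regions. For the other 9 lists the interval held that share. Regions are not replicates and losing regions often had losing neighbours, so no difference between lists is read from these intervals.

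**Figure D5:**
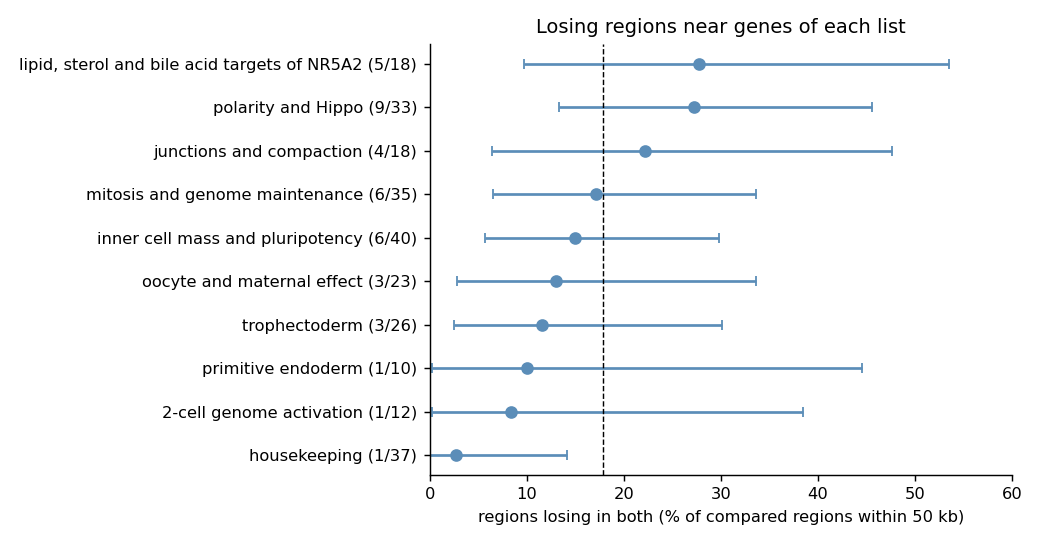
Percentage of compared regions within 50 kb of the genes of each list that lost accessibility in both knockouts, with exact 95% binomial intervals and counts in brackets. The dashed line is the share over all compared regions, 17.9%, and the housekeeping interval alone ends below it, at 14.2%. The intervals treat regions as independent and are a description with no test.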

How the data were processed

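ATAC-seq of 23 libraries of 8-cell mouse embryos was deposited as 1 table. Per the submitters' processing notes, cutadapt, Bowtie2, MACS2 and the mm10 build were used. The values are RPKM as the authors computed them, 1 merged value per group, per the file headers, with a CUT&RUN RPKM from another study. The authors' deposited ratios equalled knockout over control with 0.01 RPKM added, within 5e-08. Summit positions, in bp, are as deposited. The sources used here do not say how insertions were shifted, duplicates removed or counting windows set, and duplicates left in would make the intervals too narrow. The region's listed length did not enter the ATAC-seq values.

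Whole reads were recovered within 0.0001 of a step. Intervals are Clopper-Pearson, conditional on the summed reads for ratios. Exact binomial tests of reads used scipy 1.17.1 (Python 3.11.15). Genes are protein-coding spans of a RefSeq table (GRCm38.p6), and the distance runs from the region's edge. Chromosomes without promoter windows were left out of counts by gene start. Coordinates are printed as the table lists them.

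The regions and lists were chosen with earlier results of these data known. Named regions are the 10 with the highest control values, the 10 with the strongest CUT&RUN signal, the 8 with the lowest upper interval ends, up to 4 per gene list, those at the limit, and genes with at least 3. Promoter and X-linked regions, and those near Tfcp2l1, Tdgf1, Acaca, Llgl1, Rock2, Ndc80 and Star and the nearest one to Pard6b, were named after their values were seen. The mz series and the inducible series were each compared within themselves. Some results are not reported here.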

Additional observations from a re-analysis of the deposited data

How the results depend on the processing

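The number of losing regions was 441 at a ratio limit of 0.4, 1333 at 0.6, 206 with each series scaled to a median ratio of 1 and 200 at control levels of 8 and 4 RPKM, against 849. It was 835 by the authors' deposited ratios and 840 with regions within 1 kb counted once. At a limit of 0.6 the summed ratio was 0.339 (mz series) and 0.404 (inducible series), and it was 0.541 and 0.499 when divided by the median ratio of all compared regions, and 0.305 in the mz series as a median of ratios. The CUT&RUN ratio of medians, losing over other compared regions, was 1.04 and lay between 1.04 and 1.05 under its alternatives. The excess of moved summits, 7.97 percentage points, was 3.35 at 4 to 8 RPKM in mz_NrHet, 4.22 farther than 1 kb from a gene end (an alternative chosen after seeing the data) and turned to -2.33 when moves of at least 50 bp were counted, where the median move was 39 bp in losing regions and 48.5 bp in others. The gap at gene ends, -9.39 percentage points, was -12.4 within 5 kb, -11.0 at a limit of 0.4, -4.95 at 4 to 8 RPKM and, by an alternative chosen after seeing the data, -5.56 among moved summits. Near genes of the lists, 21 losing regions lay within 10 kb, against 39 within 50 kb. The share of a list also changed with this distance. Within 10 kb it was 11.1% for pluripotency (2 of 18), against 15.0%, and 37.5% for junctions (3 of 8), against 22.2%. After scaling to the median and to the sum of all regions, the regions called lower by reads numbered 52 and 14 in the mz series, against 293, and 199 and 78 in the inducible one, against 1081. With regions of fewer than 10 reads left out they numbered 439 and 1148. The cause of these changes was not tested. No paired analysis was possible because each group has 1 merged column, and for the same reason no replicate could be left out. With 5 to 25 reads in the median losing region, counting error limits every single ratio.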

Other observations

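Chromosome X was outside the autosomal rule. Of 154 X-linked regions with the same control levels, 44 met both ratio limits (28.6%, exact 95% interval 21.6 to 36.4), against 17.9% of autosomal regions, a description with no test. The sample annotation used here does not give the sex of the embryos, so a difference in X copy number between groups cannot be told apart. The 4 with the highest mz_NrHet values lay inside Nexmif, Uba1 and Klf8 and near Atp6ap2. The Nexmif region had 6.81 RPKM in mz_NrKO and 15.9 RPKM in mz_NrHet, and 2.55 RPKM in the treated and 5.88 RPKM in the untreated pool. The region inside Uba1, the gene of the main ubiquitin-activating enzyme, had 5.74 RPKM in mz_NrKO and 11.8 RPKM in mz_NrHet, and 1.36 RPKM in the treated and 2.78 RPKM in the untreated pool. The ratio limits fixed that Nexmif and Uba1 were lower in both knockouts, and the upper end of the Uba1 interval in the inducible series was 1.20. The region near Atp6ap2, which encodes a subunit associated with the vacuolar proton pump (chromosome X, 12495293 to 12495558), had 2.51 RPKM in mz_NrKO and 11.2 RPKM in mz_NrHet, and 0.681 RPKM in the treated and 5.22 RPKM in the untreated pool. The region inside Klf8, a Krüppel-like factor gene, had 2.15 RPKM in mz_NrKO and 11.2 RPKM in mz_NrHet, and 1.70 RPKM in the treated and 3.75 RPKM in the untreated pool. These X-linked regions were picked by their control level after the values were seen.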
